A study of Homo sapiens with 6 samples.

Results

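Genes of the Notch pathway were followed through messenger RNA profiles of A549, an established human line of lung adenocarcinoma cells. The genes are the receptors NOTCH1, NOTCH2 and NOTCH3, the ligands JAG1 and JAG2, the effectors HES1, HES4 and NRARP, the DNA-binding protein RBPJ and the ubiquitin ligase DTX2. The 10 genes were chosen by symbol, out of 17787 symbols listed in any of 6 libraries, and each was present on 1 row of every file. Of the libraries, 3 are labelled siNC (genotype given as wild type) and 3 siFOXD3, after a short RNA meant to lower the FOXD3 message. What siNC stands for is not spelled out; it is the control here, and no siRNA dose or harvest time is stated. Values are FPKM, in which fragments are divided by gene length and by the size of the library. This allows an approximate comparison between genes and between libraries, but it does not remove a scaling difference between the groups. Size factors from median-of-ratios scaling were 1.03 to 1.06 in siNC and 0.959 to 0.971 in siFOXD3. Nothing in the labels says that a replicate was its own culture, and the p-values reflect no more than the scatter of these libraries, which may be technical.

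Notch receptors are membrane proteins that are activated by ligands on a neighbouring cell. Ligand binding exposes the receptor to cutting by an ADAM protease and then by the gamma-secretase complex, and the freed intracellular domain enters the nucleus, where it joins RBPJ and a Mastermind coactivator to switch on genes such as HES1 and NRARP. HES proteins repress other genes, NRARP restrains the intracellular domain that induced it, and Deltex proteins such as DTX2 attach ubiquitin in the handling of the receptor. In the airway, Notch signalling is known for favouring secretory over ciliated and neuroendocrine fates.

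The promoters of the 3 effectors are shown because RBPJ is known to act at such genes, and because the effectors are compared with each other. Each window runs from 250 bases before to 50 bases after the annotated start in RefSeq on GRCh38.p14, while hg19 is the build named for the deposited values. The HES1 window is chr3:194135898-194136197 on the plus strand, the HES4 window chr1:1000048-1000347 on the minus strand and the NRARP window chr9:137302222-137302521 on the minus strand. Sequences read 5′ to 3′ along the gene, and capitals mark GTGGGAA, the core letters bound by RBPJ.
HES1: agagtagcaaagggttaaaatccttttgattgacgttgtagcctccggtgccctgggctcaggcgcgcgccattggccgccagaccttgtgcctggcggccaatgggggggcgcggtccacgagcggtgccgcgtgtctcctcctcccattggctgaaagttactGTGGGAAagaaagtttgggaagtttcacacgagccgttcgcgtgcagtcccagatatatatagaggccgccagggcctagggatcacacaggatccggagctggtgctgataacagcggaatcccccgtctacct
HES4: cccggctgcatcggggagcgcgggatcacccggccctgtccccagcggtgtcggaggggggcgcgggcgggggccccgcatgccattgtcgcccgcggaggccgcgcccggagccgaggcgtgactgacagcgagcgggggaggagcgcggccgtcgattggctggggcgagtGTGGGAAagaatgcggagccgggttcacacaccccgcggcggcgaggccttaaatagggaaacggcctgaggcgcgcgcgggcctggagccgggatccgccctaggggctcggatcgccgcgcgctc
NRARP: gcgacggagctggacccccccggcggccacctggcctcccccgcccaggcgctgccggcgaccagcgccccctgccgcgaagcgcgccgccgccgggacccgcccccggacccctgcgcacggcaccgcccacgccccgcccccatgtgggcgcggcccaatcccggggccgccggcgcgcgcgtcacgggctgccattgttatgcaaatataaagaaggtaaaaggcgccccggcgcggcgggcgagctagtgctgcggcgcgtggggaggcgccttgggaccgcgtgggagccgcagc
The core stood 85 bases before the start of HES1 and 77 bases before that of HES4, and neither strand of the NRARP window held it. All 10 genes had at least 1 RefSeq window, 14 in all, and besides HES1 and HES4 only RBPJ held the core, in 1 of its 5 windows. Of all 35116 windows of this length, 6.25% held GTGGGAA or its reverse complement. A match is a description of letters and not a measured binding site. The letters CACNAG, an N-box of the kind HES proteins can bind, were found 4 times in the HES1 window counting both strands, and 38.0% of all windows held at least 1. None of the 14 windows held TGTTTAC, a forkhead core, on either strand, and 3.42% of all windows did.

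FOXD3 was near the detection limit. Its FPKM was 0.152, 0.291 and 0.134 in the siNC libraries and 0.0749 in siFOXD3 replicate 2. The files of siFOXD3 replicates 1 and 3 do not list it, which counts as 0. From the steps between low values the libraries were estimated to hold 7490000 to 8770000 fragments, and for an effective length of 1 kilobase a count of 0 allows up to 3 fragments, worth 0.342 to 0.401 FPKM. The FOXD3 transcript, at 2086 bases, is longer than 1 kilobase, so its own floor is lower than this. By replicate, FOXD3 came to about 2, 4 and 2 fragments (siNC) against 0, 1 and 0 (siFOXD3). The groups did not overlap, with means of 0.192 FPKM for siNC and 0.025 FPKM for siFOXD3. The direction is that of the labels, but fragments this few are too sparse to check them. Of 12555 genes tested with limma on log2(FPKM + 1), 8278 passed a Benjamini-Hochberg adjusted p under 0.05, which is 65.9%, with 3415 higher (27.2%) and 4863 lower (38.7%) in siFOXD3. The split moved with scaling, to 4416 higher and 3934 lower with median-of-ratios scaling and 4255 higher and 3835 lower with quantile normalization. The all-gene median log2 fold change moved with it, from -0.08 as deposited to 0.02 and 0.03. The labels' protocol names retina as the extracted tissue while the cell type label is A549. All 5 epithelial carcinoma markers were at 1 FPKM or more, summing to 5051 to 6021 FPKM in siNC and 7215 to 7277 FPKM in siFOXD3. These markers did not share a direction. KRT8, KRT18 and EPCAM were called higher, CDH1 lower (-0.21, limma, adjusted p = 0.00355), and KRT19 was not called. Of 10 photoreceptor markers none reached 1 FPKM, and their sum was 0.739 to 1.22 FPKM in siNC and 0.834 to 1.29 FPKM in siFOXD3.

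Of the 10 genes, NRARP and JAG2 rose, NOTCH2 and DTX2 fell, and the other 6 did not pass the test, against 65.9% of all genes passing it. For 6 of the 10 no siFOXD3 value lay within the siNC range or the reverse, 3 higher and 3 lower, where 70.7% of all tested genes did not overlap, 29.6% higher and 41.1% lower. The median log2 fold change of the 10 was -0.09, beside -0.08 for all genes tested. NRARP and DTX2 were also called by a limma test against a fold of 1.2, which 34.2% of all genes passed, 12.9% higher and 21.3% lower. With median-of-ratios scaling JAG1, JAG2 and NRARP were called higher and DTX2 lower, beside 66.5% of all genes called, 35.2% higher and 31.3% lower. With quantile normalization JAG1, JAG2 and NRARP were called higher and NOTCH2 and DTX2 lower, beside 64.4% of all genes called, 33.9% higher and 30.5% lower. In bulk RNA, fewer cells of a type and less RNA per cell cannot be told apart.

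**Figure D1:**
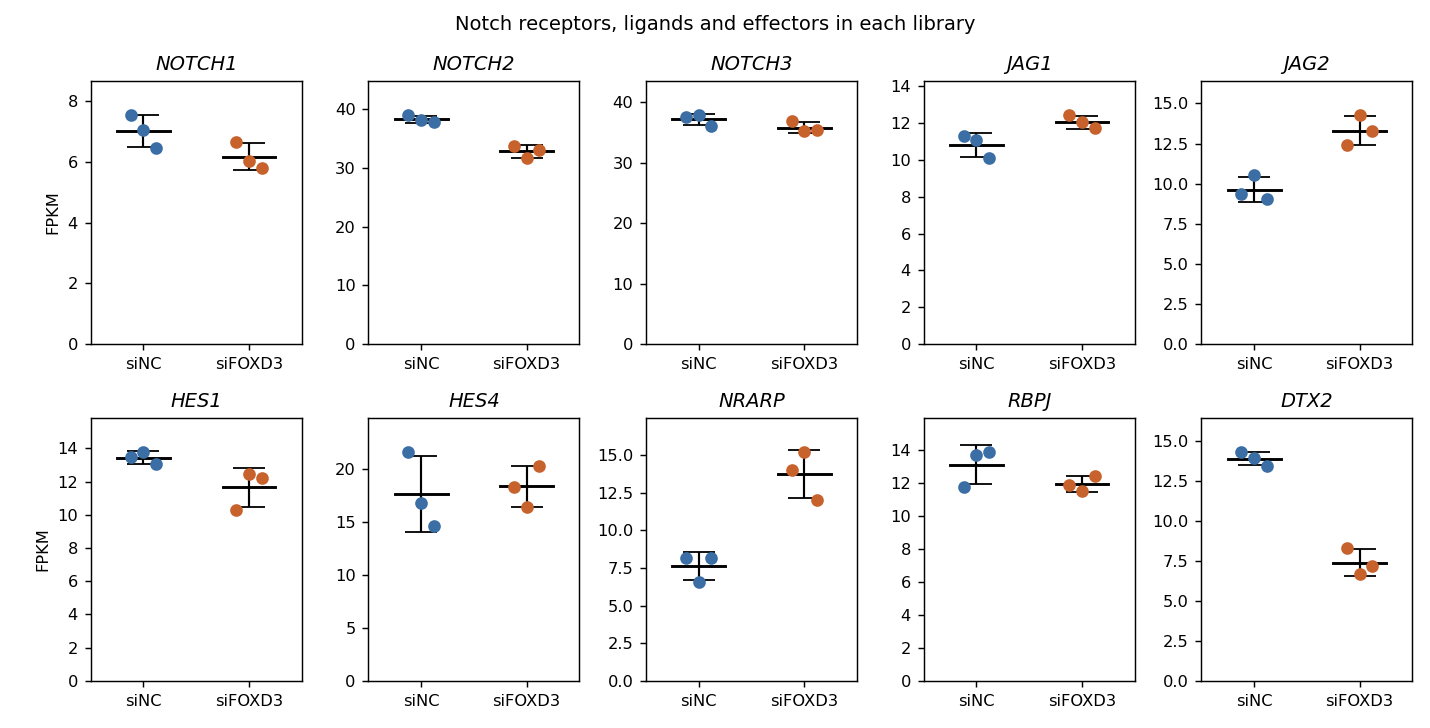
FPKM of each of the 10 genes (vertical axis, from 0) in the 3 siNC and 3 siFOXD3 libraries; points are libraries, the long bar is the mean and the whiskers are 1 SD. NRARP lay at 6.58 to 8.19 in siNC and 12.1 to 15.2 in siFOXD3, DTX2 lay at 13.4 to 14.3 and 6.65 to 8.32, and the HES4 values of the groups overlapped.

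NRARP, a small ankyrin-repeat protein induced by Notch and restraining it, showed the largest rise of the 10. Replicates 1 to 3 read 8.19, 6.58 and 8.18 FPKM for siNC and 14.0, 15.2 and 12.1 FPKM for siFOXD3. Every siFOXD3 library was above every siNC library. The mean went from 7.65 ± 0.930 to 13.8 ± 1.59 FPKM (SD, n = 3 each), a ratio of 1.80. On the log2 scale the rise was 0.77 ± 0.10 (SE, limma, adjusted p = 8.99e-05), higher than that of 95.4% of all genes tested. NRARP has 1 coding transcript in GENCODE 29, for which the values correspond to an estimated 80 to 107 fragments in siNC and 171 to 195 in siFOXD3.

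HES1, a basic helix-loop-helix repressor that is the best known Notch target, did not pass the test. Its values were 13.5, 13.8 and 13.0 FPKM in siNC and 10.3, 12.5 and 12.2 FPKM in siFOXD3. All siFOXD3 values lay below all siNC values, by a small margin, and siFOXD3 replicate 1 was the lowest. The log2 fold change was -0.19 ± 0.08 (SE), which missed the threshold (limma, adjusted p = 0.0526). Without siFOXD3 replicate 2 the adjusted p was 0.0425, and with a filter of 5 FPKM it was 0.0492. The fall was smaller with median-of-ratios scaling (-0.09, limma, adjusted p = 0.376) and with quantile normalization (-0.13, adjusted p = 0.192). It was also smaller without siFOXD3 replicate 1 (-0.11, adjusted p = 0.225). HES1 corresponded to an estimated 126 to 156 fragments per library, for which counting alone gives a relative error of 8.0% to 8.9%.

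HES4, a close relative of HES1 that the mouse genome lacks, was the most abundant of the 3 effectors and the most variable. It was at 21.6, 16.8 and 14.6 FPKM in siNC and at 18.3, 16.5 and 20.3 FPKM in siFOXD3. The siNC values enclosed all siFOXD3 values. The log2 fold change was 0.07 ± 0.12 (SE, limma, adjusted p = 0.659; 95% interval -0.21 to 0.34). Its sign turned without siNC replicate 3 (-0.05) and without siFOXD3 replicate 3 (-0.0059).

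Ratios within a library do not depend on the scaling between libraries, so the effectors were also set against each other. The ratio of NRARP to HES1 was 0.607, 0.477 and 0.628 in siNC and 1.36, 1.22 and 0.989 in siFOXD3. NRARP was thus below HES1 in every siNC library and above it in siFOXD3 replicates 1 and 2. The share of NRARP in the summed FPKM of HES1, HES4 and NRARP went from 19.8 ± 2.67% to 31.5 ± 3.90% (SD, n = 3 each). The groups did not overlap in either measure (two-sided exact permutation p = 0.1 for each, the smallest that 3 libraries against 3 allow). The share of HES1 in HES1 and HES4 together was 43.5 ± 4.53% in siNC and 38.8 ± 3.76% in siFOXD3, with overlapping values (exact permutation p = 0.2).

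**Figure D2:**
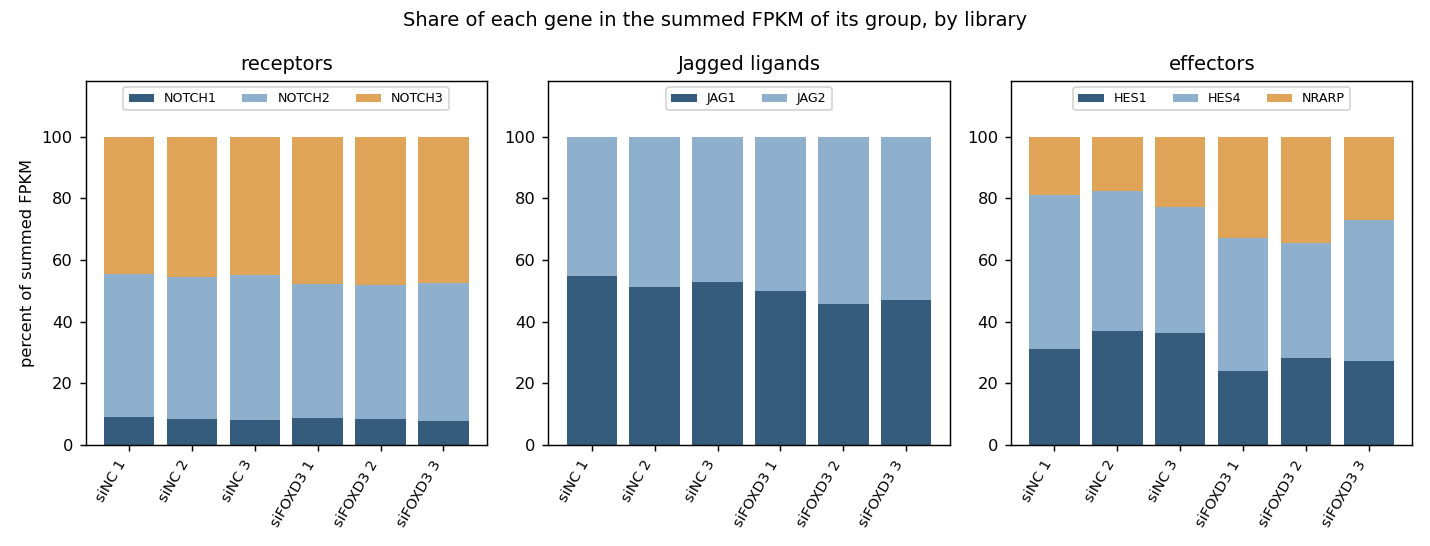
Stacked bars of the percent of summed FPKM (vertical axis) taken by each receptor, each Jagged ligand and each effector, 1 bar per library. NRARP took 17.7% to 22.8% of the effector sum in siNC and 27.0% to 34.5% in siFOXD3, and JAG1 was below JAG2 in siFOXD3 replicates 2 and 3.

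Among the ligands, JAG2, a membrane ligand of the Jagged class, rose. Its values were 9.34, 10.5 and 9.03 FPKM in siNC and 12.4, 14.3 and 13.3 FPKM in siFOXD3. The groups were apart, with the lowest siFOXD3 value above the highest siNC value. The mean went from 9.63 ± 0.790 to 13.3 ± 0.929 FPKM (SD, n = 3 each), a log2 fold change of 0.43 ± 0.08 (SE, limma, adjusted p = 0.00086). Against a fold of 1.2 the adjusted p was 0.088.

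JAG1, the other Jagged ligand, was at 11.3, 11.1 and 10.1 FPKM in siNC and at 12.4, 12.0 and 11.7 FPKM in siFOXD3. The siFOXD3 values were all higher, but by little. The log2 fold change of 0.15 ± 0.07 (SE) did not pass the test (limma, adjusted p = 0.0886). It passed with median-of-ratios scaling (0.25, adjusted p = 0.00963), with quantile normalization (0.22, adjusted p = 0.021) and without siNC replicate 1 (0.17, adjusted p = 0.0491). JAG1 made up 52.9 ± 1.75% of the 2 Jagged messages in siNC and 47.6 ± 2.21% in siFOXD3 (SD, n = 3 each), with no overlap (two-sided exact permutation p = 0.1, the smallest possible). The summed Jagged FPKM was 19.1 to 21.6 in siNC and 24.8 to 26.3 in siFOXD3.

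NOTCH2, a receptor that is broadly expressed in epithelia, fell slightly. It was at 39.0, 38.3 and 37.8 FPKM in siNC and at 33.7, 31.7 and 33.1 FPKM in siFOXD3. The groups did not overlap and each was narrow. The mean went from 38.3 ± 0.606 to 32.8 ± 1.05 FPKM (SD, n = 3 each), a log2 fold change of -0.22 ± 0.05 (SE, limma, adjusted p = 0.00353). With median-of-ratios scaling it was -0.10 (adjusted p = 0.107) and no longer called. NOTCH2NL, a human partial copy of NOTCH2, fell from 14.4 ± 1.48 to 10.2 ± 0.244 FPKM (log2 fold change -0.45, adjusted p = 0.000537), and reads can be shared between the copies, so the NOTCH2 level is uncertain to that extent.

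NOTCH3, a receptor best known from vascular smooth muscle, was at 37.6, 37.8 and 36.1 FPKM in siNC and at 36.8, 35.2 and 35.4 FPKM in siFOXD3. These values overlapped, and the log2 fold change was -0.05 ± 0.05 (SE, limma, adjusted p = 0.372), or 0.06 with median-of-ratios scaling. NOTCH1, the receptor mutated in T-cell leukaemia, was the lowest of the 10 genes. It was at 7.54, 7.06 and 6.48 FPKM in siNC and at 6.67, 6.03 and 5.82 FPKM in siFOXD3. The groups overlapped by 1 library on each side, with a log2 fold change of -0.16 ± 0.09 (SE, limma, adjusted p = 0.121) that became 0.0039 with quantile normalization.

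The balance between NOTCH2 and NOTCH3 differed between the groups. The ratio of NOTCH2 to NOTCH3 was 1.04, 1.01 and 1.04 in siNC and 0.916, 0.90 and 0.935 in siFOXD3. NOTCH2 thus had the higher FPKM in every siNC library, by little, and NOTCH3 in every siFOXD3 library (two-sided exact permutation p = 0.1, the smallest possible). Across the siNC libraries the ranges of both receptors overlapped. With reads that NOTCH2NL can share, it is not settled which receptor message was more abundant. NOTCH2 made up 46.4 ± 0.491% of the summed receptor FPKM in siNC and 43.9 ± 0.567% in siFOXD3, and NOTCH1 8.50 ± 0.452% and 8.25 ± 0.404% (SD, n = 3 each). The summed receptor FPKM was 82.5 ± 1.94 in siNC and 74.8 ± 2.22 in siFOXD3 as deposited, and 78.7 ± 2.72 and 77.4 ± 1.89 after median-of-ratios scaling, where the groups overlapped.

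DTX2, a Deltex ubiquitin ligase, showed the largest fall of the 10. It was at 14.3, 13.9 and 13.4 FPKM in siNC and at 8.32, 6.65 and 7.16 FPKM in siFOXD3. Every siFOXD3 value was far below the lowest siNC value. The mean went from 13.9 ± 0.424 to 7.38 ± 0.854 FPKM (SD, n = 3 each), a ratio of 0.531, and the log2 fold change was -0.83 ± 0.08 (SE, limma, adjusted p = 1.19e-05). Of all genes tested, 90.6% had a higher log2 fold change. DTX2P1-UPK3BP1-PMS2P11, a readthrough transcript that holds a copy of DTX2 and can share its reads, was at 3.76, 2.89 and 3.44 FPKM in siNC and 2.76, 1.85 and 2.23 FPKM in siFOXD3, and fell by 0.41 on the log2 scale (limma, adjusted p = 0.015).

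RBPJ, the DNA-binding partner of all Notch receptors, was at 11.7, 13.7 and 13.9 FPKM in siNC and at 11.9, 11.5 and 12.4 FPKM in siFOXD3. The groups overlapped through siNC replicate 1, and the log2 fold change was -0.12 ± 0.08 (SE, limma, adjusted p = 0.194). Without siNC replicate 1 it was -0.19 (adjusted p = 0.025). With median-of-ratios scaling it was -0.01 (limma, adjusted p = 0.892) and with quantile normalization -0.06 (adjusted p = 0.526). RBPJ has several processed pseudogenes in the annotation, which can share its reads.

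**Figure D3:**
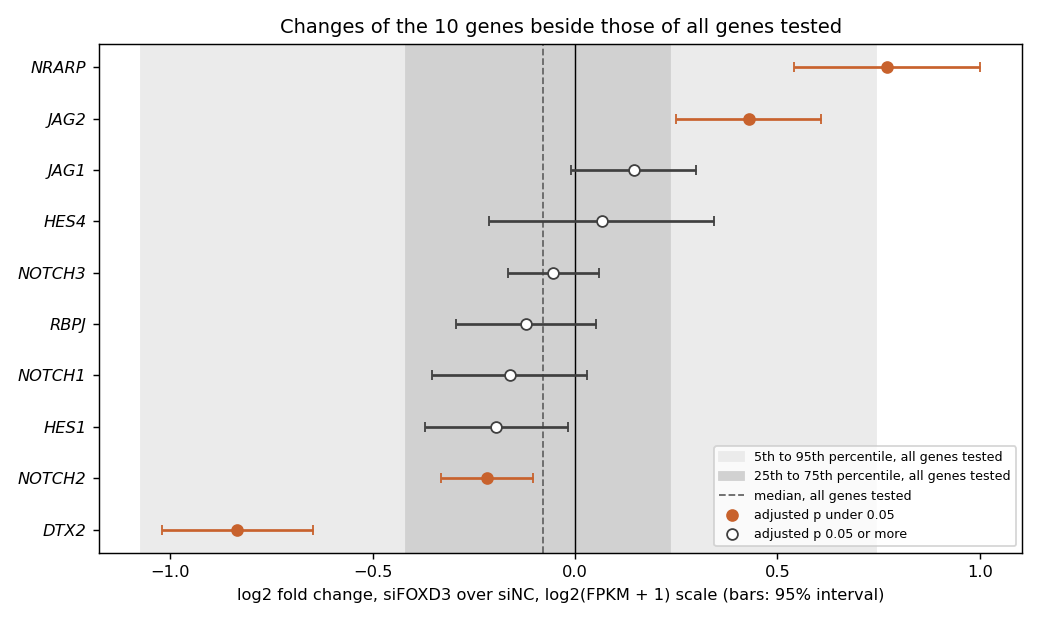
Log2 fold change of siFOXD3 over siNC on the log2(FPKM + 1) scale (horizontal axis) for the 10 genes, with 95% intervals from limma; filled points passed an adjusted p under 0.05, and the shaded bands span percentiles of all genes tested. NRARP at 0.77 lay above the 95th percentile of all genes (0.74), DTX2 at -0.83 above the 5th (-1.07), and 7 of the other 8 genes lay between the 25th (-0.42) and 75th (0.24).

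By level in siNC the order was NOTCH2, NOTCH3, HES4, DTX2, HES1, RBPJ, JAG1, JAG2, NRARP and NOTCH1, from 38.3 down to 7.02 FPKM. Neighbours in that order whose library values overlapped were NOTCH2 and NOTCH3, DTX2 and HES1, HES1 and RBPJ, JAG1 and JAG2, and NRARP and NOTCH1. In siFOXD3 the order was NOTCH3, NOTCH2, HES4, NRARP, JAG2, JAG1, RBPJ, HES1, DTX2 and NOTCH1, from 35.8 down to 6.17 FPKM. NRARP ranked 9 in siNC and 4 in siFOXD3, while DTX2 ranked 4 and then 9. The values of NRARP, JAG2, JAG1, RBPJ and HES1 overlapped between each neighbouring pair in siFOXD3, and so did those of DTX2 and NOTCH1.

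A wider list of 69 other Notch pathway genes was read from the same fit. Of these, 67 were listed in the files and 58 tested, of which 14 rose, 24 fell and 20 did not pass, 65.5% called beside 65.9% of all genes. The median log2 fold change was -0.08, as for all genes. With median-of-ratios scaling 21 rose and 21 fell, and with quantile normalization 19 rose and 18 fell. The counts by role that follow stand beside the same shares of all genes tested: 27.2% higher and 38.7% lower as deposited, 35.2% and 31.3% with median-of-ratios scaling, and 33.9% and 30.5% with quantile normalization. The roles hold 3 to 14 tested genes each, and none was tested as a group.

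Notch ligands become active through ubiquitin-driven endocytosis, and Deltex proteins act in the handling of the receptor. The list holds genes of both kinds, so its counts do not describe ligand activation alone. Of 12 tested genes of ubiquitin transfer and endocytosis, 7 fell and none rose, where 38.7% of all genes fell and 27.2% rose. The median was -0.33, beside -0.08 for all genes, and after either rescaling 7 fell and 1 rose. NEURL1, listed under its older symbol NEURL and encoding a Neuralized ligase for ligands, was at 15.1, 13.2 and 12.7 FPKM in siNC and at 4.91, 4.52 and 5.08 FPKM in siFOXD3, a log2 fold change of -1.33 ± 0.08 (SE, limma, adjusted p = 5.96e-07). Its relative NEURL1B fell from 12.6 ± 1.64 to 6.39 ± 0.482 FPKM (SD, n = 3 each; -0.88). The Mindbomb ligases, which also act on ligands, fell too, MIB1 from 12.3 ± 1.48 to 7.54 ± 0.394 FPKM (-0.63) and MIB2 from 10.3 ± 0.774 to 6.0 ± 0.853 FPKM (-0.70). These 4 were the largest falls of the list, with adjusted p at or below 0.000156. The Deltex genes DTX3 (-0.52) and DTX3L (-0.38) also fell, and DTX4 was at -0.07 and not called.

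Of 9 tested genes of the proteases that cut the receptor, 6 fell and none rose, where 38.7% of all genes fell and 27.2% rose. Their median was -0.31. With median-of-ratios scaling 5 fell and 1 rose, beside 31.3% and 35.2% of all genes, and with quantile normalization 7 fell and none rose. APH1B, an alternative scaffold subunit of gamma-secretase, was at 3.87, 5.22 and 4.24 FPKM in siNC and at 1.56, 1.55 and 1.61 FPKM in siFOXD3, a log2 fold change of -1.07 ± 0.11 (SE, limma, adjusted p = 1.46e-05). Nicastrin, the substrate receptor of that complex encoded by NCSTN, fell from 28.7 ± 0.857 to 20.6 ± 0.809 FPKM (-0.46), and PSEN2, a catalytic presenilin, from 16.1 ± 1.48 to 12.5 ± 1.27 FPKM (-0.34). FURIN, which processes the receptor precursor among many other proteins, fell from 45.7 ± 4.30 to 32.5 ± 0.801 FPKM (-0.48).

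Of 8 tested glycosyltransferases, which decorate the receptor's EGF repeats, 1 rose and 2 fell as deposited, where 27.2% of all genes rose and 38.7% fell. With median-of-ratios scaling 2 rose and 2 fell, and with quantile normalization 2 rose and 1 fell. RFNG, a Fringe enzyme, was at 20.1, 19.9 and 20.3 FPKM in siNC and at 13.4, 12.1 and 13.6 FPKM in siFOXD3 (log2 fold change -0.59 ± 0.06, SE, limma, adjusted p = 2.03e-05). MFNG, another Fringe enzyme, fell from 1.18 ± 0.173 to 0.311 ± 0.0208 FPKM (-0.73), and with quantile normalization it was at -0.29 with an adjusted p of 0.0691. POGLUT1, an O-glucosyltransferase, rose from 3.0 ± 0.649 to 4.25 ± 0.152 FPKM (0.41, adjusted p = 0.0147).

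Of 7 tested coactivators of the nuclear complex, 4 rose and 1 fell, where 27.2% of all genes rose and 38.7% fell. Their median was 0.31. With median-of-ratios scaling 5 rose and 1 fell, and with quantile normalization 5 rose and none fell. The acetyltransferase EP300 was at 11.3, 12.8 and 12.3 FPKM in siNC and at 17.7, 17.6 and 17.1 FPKM in siFOXD3, a log2 fold change of 0.49 ± 0.07 (SE, limma, adjusted p = 9.33e-05). Its relative CREBBP rose from 6.15 ± 0.540 to 8.32 ± 0.313 FPKM (0.39) and KAT2A, another acetyltransferase, from 11.7 ± 0.466 to 16.0 ± 0.528 FPKM (0.42). MAML2, a Mastermind coactivator, fell from 3.75 ± 0.345 to 2.46 ± 0.0596 FPKM (-0.46), and was not called with quantile normalization (-0.18, adjusted p = 0.0982). The more abundant Mastermind gene MAML1 went the other way, from 9.49 ± 0.249 to 12.0 ± 0.607 FPKM (0.31, limma, adjusted p = 0.00248). MAML3 was at 0.06 and not called. Of 14 corepressors, 6 rose and 5 fell as deposited, beside the same 27.2% and 38.7% of all genes. That balance moved with scaling, to 8 higher and 3 lower with median-of-ratios scaling and 6 higher and 2 lower with quantile normalization. SPEN, a scaffold that turns RBPJ into a repressor, rose from 5.09 ± 0.531 to 9.51 ± 0.178 FPKM (0.79, adjusted p = 1.87e-05) and TLE3, a Groucho corepressor that HES proteins recruit, from 10.3 ± 0.248 to 14.8 ± 0.810 FPKM (0.49). L3MBTL3, which binds RBPJ, fell from 2.41 ± 0.411 to 1.10 ± 0.111 FPKM (-0.70), and CIR1, another RBPJ partner, from 19.5 ± 3.54 to 13.2 ± 1.72 FPKM (-0.52).

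Of 5 other HES and HEY genes tested, 2 rose and 2 fell as deposited, beside 27.2% and 38.7% of all genes. With median-of-ratios scaling 3 rose and 2 fell, and with quantile normalization 3 rose and 1 fell. HES7, known as an oscillating repressor of the segmentation clock, was at 7.36, 9.08 and 8.20 FPKM in siNC and at 4.06, 3.17 and 3.33 FPKM in siFOXD3 (log2 fold change -1.03 ± 0.10, SE, limma, adjusted p = 1.3e-05). HES2 rose from 4.96 ± 0.581 to 7.53 ± 0.523 FPKM (0.52, adjusted p = 0.000777). HES5, a Notch target in neural progenitors, was low, at 0.442, 1.08 and 0.509 FPKM in siNC and at 1.53, 2.32 and 2.04 FPKM in siFOXD3 (0.83, adjusted p = 0.00117). HEYL, a Hairy-related repressor, fell from 1.11 ± 0.105 to 0.529 ± 0.212 FPKM (-0.47, adjusted p = 0.00928), and with quantile normalization it was at -0.02 and not called. HEY1 and HEY2 stayed under 1 FPKM in every library and were not tested.

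Of the Delta class, DLL3, a divergent ligand that does not activate the receptor, fell from 1.84 ± 0.40 to 1.05 ± 0.147 FPKM (-0.46, limma, adjusted p = 0.00926), and with quantile normalization it was at -0.14 with an adjusted p of 0.35. DNER, an atypical neuronal ligand, rose from 1.58 ± 0.311 to 2.25 ± 0.361 FPKM (0.34, adjusted p = 0.0397), but not without siNC replicate 3 (adjusted p = 0.145), without siFOXD3 replicate 1 (0.064), without siFOXD3 replicate 2 (0.151), with no filter on low values (0.0602) or in the test against a fold of 1.2 (0.558). DLL1, DLL4 and NOTCH4 were each under 0.2 FPKM in every library. Endothelial cells are a known source of DLL4 and NOTCH4, and of 6 endothelial markers only CDH5 reached 1 FPKM; it fell from 2.73 ± 0.355 to 1.82 ± 0.124 FPKM (-0.40, adjusted p = 0.00756; with quantile normalization -0.12, adjusted p = 0.372), while PECAM1 was at or under 0.141 FPKM in every library. Their part in the Notch values was not tested.

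**Figure D4:**
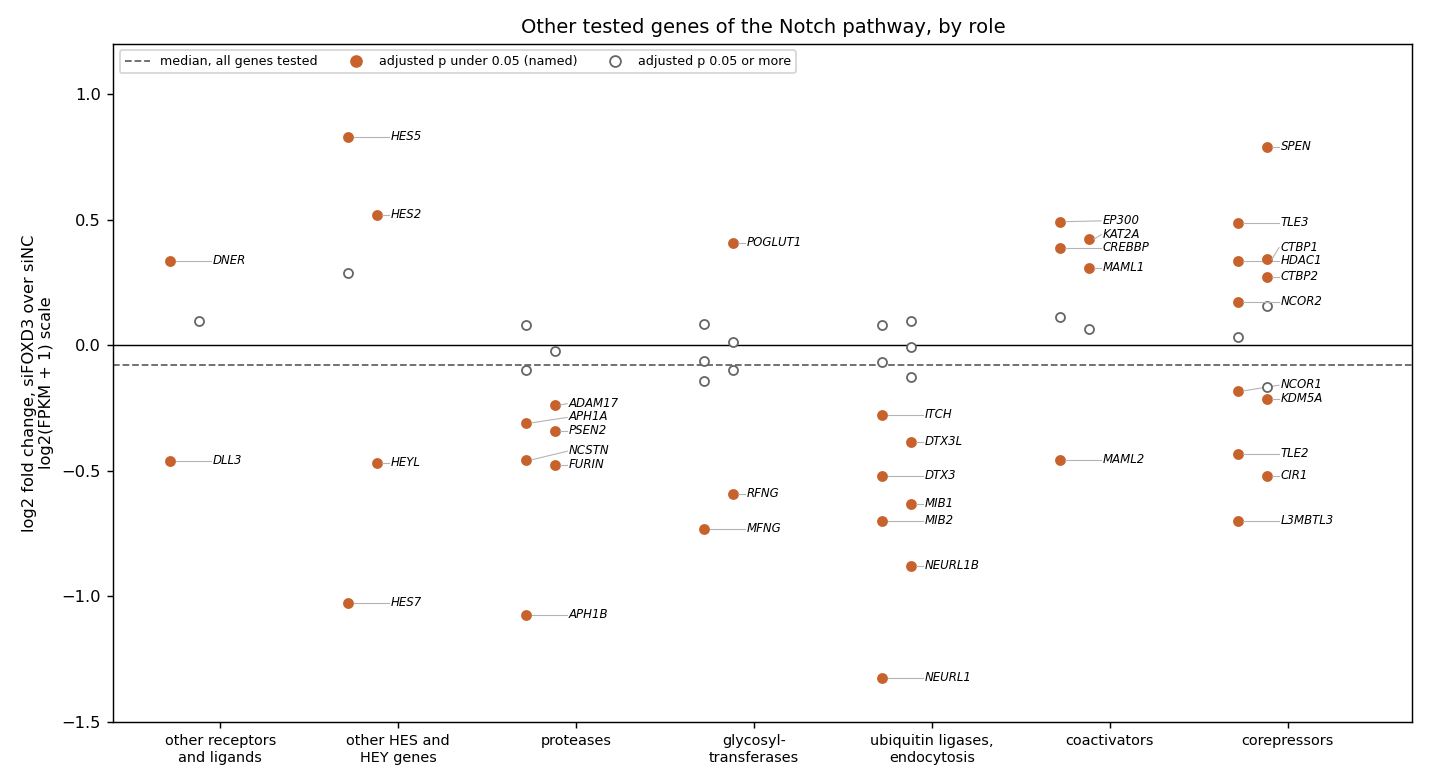
Log2 fold change of siFOXD3 over siNC on the log2(FPKM + 1) scale (vertical axis) for the 58 other tested Notch pathway genes, grouped by role; each point is a gene, filled and named where the adjusted p was under 0.05. All 13 filled points among proteases and among ubiquitin and endocytosis genes lie below 0, and 4 of the 5 filled coactivators above it.

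The genes beside the 10 on the chromosome were read from the order of protein-coding genes in RefSeq on GRCh38.p14. NRARP rose between TOR4A, listed as C9orf167, which averaged 25.2 ± 1.25 FPKM for siNC and 25.8 ± 1.2 FPKM for siFOXD3 (log2 fold change 0.03, not called), and EXD3, which fell from 2.83 ± 0.719 to 0.495 ± 0.138 FPKM (-1.34, limma, adjusted p = 2.41e-05). HES4 lies next to ISG15, an interferon-induced ubiquitin-like protein, which fell from 254 ± 36.5 to 164 ± 10.1 FPKM (-0.62, adjusted p = 0.000131) while HES4 did not pass the test. DTX2 lies between ZP3 (-0.14, not called) and UPK3B (-0.32, adjusted p = 0.00826). EGFL7, a secreted EGF-like protein beside NOTCH1, fell from 46.4 ± 1.44 to 22.7 ± 0.577 FPKM (-1.0, adjusted p = 1.86e-07), and SEC16A on the other side rose (0.32, adjusted p = 0.00158).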

How the data were processed

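Messenger RNA of 3 siNC and 3 siFOXD3 libraries of A549 cells was analysed, with groups and replicate numbers from the sample titles. Libraries were made with an Illumina TruSeq kit, per the labels' protocols. TopHat, Cufflinks and hg19 are named per the submitters' processing notes; for versions, annotation and strand the answer is not given in the sources used here. Per the file headers, the deposited unit is FPKM, given by gene symbol. In each file 274 to 307 symbols stood on several rows. Rows of a symbol were summed and absent symbols set to 0.

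Genes with at least 1 FPKM in at least 3 libraries (12555) were tested after log2(FPKM + 1). The fit used limma 3.58.1, run under R 4.3.3 (lmFit, eBayes with trend and robust), two-sided, and p-values were adjusted by Benjamini-Hochberg across these genes, with a threshold of 0.05. Fold changes on this scale understate those of low genes. The members and lists were chosen with earlier results of these data known. Named genes are the 10 members, FOXD3, up to 4 called genes with the largest change and no overlap of each pathway list (the 2 most abundant where fewer than 2 qualified), and of each airway or cell type list the most abundant and called genes, at most 3. DTX3, DTX3L, DTX4, HEY1, HEY2, DLL1, DLL4, NOTCH4, PECAM1, SCGB1A1, SPDEF, TP63, KRT14, NGFR, the copies of NOTCH2 and DTX2 and the chromosomal neighbours were named outside that rule, after their values were seen. So were MAML1, MAML3, TP73, FOXJ1, MYB, GMNC, CDH1 and KRT19.

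Files give no depth. It was estimated from steps between low FPKM values of 985 genes with 1 GENCODE 29 transcript of 700 to 4000 bases and an assumed fragment of 150 bases, so fragment numbers are approximate and cover counting error only. On data simulated for the same 12555 genes and 3 against 3 libraries, the fit found 40.0% of the genes given a log2 change of 0.25, 92.0% for 0.5 and 100% for 1, and made 11 false calls. Only 50 genes were changed at each size, with normal scatter and no scaling shift between groups. In the data 65.9% of genes were called, so these rates do not carry over to the calls made here. Python 3.11.15, pandas 2.3.3, numpy 2.4.6, scipy 1.17.1 and matplotlib 3.10.9 were used for the rest. Alternatives were the pseudocount (0.1, 5), the filter (none, 5 FPKM), the scaling, limma without trend and robust, a test against a fold of 1.2, the largest row per symbol, each library left out, and the replicate number as a block.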

Additional observations from a re-analysis of the deposited data

How the results depend on the processing

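NRARP and DTX2 kept their direction and call under all 16 alternatives, at 0.57 to 0.88 and at -0.91 to -0.61 on the log2 scale. JAG2 lost its call in the test against a fold of 1.2 only, and NOTCH2 there and with median-of-ratios scaling. In the test against a fold of 1.2, 4297 genes were called over all genes, 1621 higher and 2676 lower, with 2 of the 10 members (1 higher, 1 lower) and 18 other pathway genes (6 higher, 12 lower). Of the pathway genes named by the rule given above, DLL3, DNER, HEYL, PSEN2, POGLUT1, MAML2, CREBBP and CIR1 lost their call there. With median-of-ratios scaling 1 member was called lower. Direction turned for NOTCH3 with median-of-ratios scaling (0.060), for NOTCH1 with quantile normalization (0.0039), for HES4 without siNC replicate 3 (-0.054) and without siFOXD3 replicate 3 (-0.0059), and for COL1A1 with quantile normalization (0.037); none of these was called either way, and the cause was not tested. HES4 ranged from -0.054 to 0.213 as each library was left out. Leaving out a library gave 4 to 6 members called, 6 without siNC replicate 1, where JAG1 and RBPJ were added. Of 722 gene results under alternatives, 677 kept direction and call, 30 lost the call, 10 gained it and 5 turned.

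Deviations of same-numbered libraries from their group means correlated at 0.061, 0.163 and 0.115 over genes, so not every pair was above 0.1, and the labels name no shared batch; every library did correlate best with its own number. With the replicate block 8172 genes were called, and 4 members and 38 other pathway genes, as without it. Depth limits the effectors, with an estimated 126 to 156 fragments per library for HES1 and 80 to 195 for NRARP.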

Other observations

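Markers of the airway fates that Notch is known to steer were mostly low. Of 6 neuroendocrine genes none reached 1 FPKM, and SYP was the highest of them, with means of 0.119 ± 0.0789 FPKM for siNC and 0.223 ± 0.137 FPKM for siFOXD3 (SD, n = 3 each). The secretory mucin MUC5B was at 8.98, 9.23 and 10.1 FPKM in siNC and 11.1, 9.64 and 10.6 FPKM in siFOXD3 (log2 fold change 0.13, limma, adjusted p = 0.153; with median-of-ratios scaling 0.24, adjusted p = 0.0157). SCGB1A1, the secretoglobin of club cells, was listed in no siNC library and at 1.72, 2.24 and 0.844 FPKM in siFOXD3, below the filter. SPDEF, a transcription factor of goblet cells and the other secretory gene that passed the filter, lay the other way, at 3.56, 4.0 and 5.48 FPKM in siNC and 3.72, 3.57 and 3.31 FPKM in siFOXD3 (-0.22, adjusted p = 0.152, not called). CCNO, a cyclin of multiciliated cells that is also present in other cells, fell from 6.02 ± 0.198 to 4.44 ± 0.479 FPKM (-0.37, adjusted p = 0.00467; with quantile normalization -0.17, adjusted p = 0.115). The other listed ciliated markers did not share that fall. TP73 was at -0.06 (limma, adjusted p = 0.665, not called). Below the filter, FOXJ1 averaged 0.168 FPKM for siNC and 0.229 for siFOXD3, and MYB 0.821 and 1.14, both with overlap. GMNC was at 0.0509 FPKM in siNC replicate 1 and at 0 elsewhere. KRT5, a keratin of basal cells, rose from 0.542 ± 0.139 to 2.54 ± 0.0122 FPKM (1.2, adjusted p = 6.43e-06). The other 3 basal markers were below the filter and did not share a direction: TP63 averaged 0.477 FPKM for siNC and 0.933 for siFOXD3, without overlap, KRT14 averaged 0.667 and 0.827 with overlap, and NGFR averaged 0.236 and 0.0096, lower without overlap. NRL, the highest of the photoreceptor genes, averaged 0.721 FPKM in both groups.

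Of 7 leukocyte markers, 3 passed the filter and all 3 fell: LAPTM5 from 2.06 ± 0.241 to 0.210 ± 0.0691 FPKM (-1.34), CD14 from 2.92 ± 0.613 to 1.25 ± 0.304 FPKM (-0.80) and CD68 from 74.0 ± 4.74 to 66.0 ± 0.82 FPKM (-0.16, limma, adjusted p = 0.0244, and -0.05 with median-of-ratios scaling). CD68 was also not called in the test against a fold of 1.2, with limma without trend and robust, or when any 1 siFOXD3 library was left out (adjusted p = 0.0533 to 0.0776). COL1A1, the highest of 7 fibroblast markers, averaged 3.91 ± 0.404 FPKM for siNC and 3.2 ± 0.231 FPKM for siFOXD3 and did not pass the test. The part of such cells in the Notch values was not tested.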
